A study of Homo sapiens with 6 samples.

Results

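Among the chemokine mRNAs of Huh7 cells, a human hepatocellular carcinoma line, 8 are described here: CXCL1, CXCL2, CXCL3, CXCL5, CXCL8, CCL20, CX3CL1 and CXCL16. They are 8 of the 22077 genes in the deposited count table, and all 8 were among the 14162 genes that passed the filter on low counts. The genes were chosen by their symbols with the fold changes of this same contrast known, so their differences between the groups are a description and carry no test. RNA-seq was performed on 3 libraries from cells overexpressing transketolase (TKT), an enzyme of the pentose phosphate pathway, and on 3 libraries from control cells labelled as wild type and as the vector group. The authors introduced TKT by transfecting a plasmid that also carries GFP and puromycin resistance, followed by selection, and whether the selected cells were a clone or a pool is not given in the sources used here. The labels spell the line in a way close to Huh7, and it is taken as such here, although HCCLM3 is the line given for RNA sequencing in the Methods of the paper. The labels number the libraries of a group as biosamples, and the paper says in general terms that its experiments were repeated independently, but neither says for these libraries whether they came from separate cultures. The spread and the p-values below are therefore those between these samples.

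Chemokines are small secreted proteins that steer leukocytes along concentration gradients by binding G protein-coupled receptors on their surface. CXCL1, CXCL2, CXCL3, CXCL5 and CXCL8 carry a glutamate-leucine-arginine motif before their CXC cysteines, bind CXCR2 (CXCL8 also binds CXCR1) and attract neutrophils. CCL20 binds CCR6 and attracts lymphocytes and immature dendritic cells. CX3CL1 (fractalkine, the ligand of CX3CR1) and CXCL16 (the ligand of CXCR6) are made as membrane-bound proteins with a mucin-like stalk, and ADAM10 and ADAM17 release them from the cell surface. In epithelial and liver cells, transcription of several of these genes is known to be switched on by NF-kappa B and AP-1 after inflammatory stimulation.

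The 5 neutrophil-attracting ligands lie together on chromosome 4 within 358.8 kb of GRCh38 (GENCODE 29), from 73740506 to 74099293. In genomic order these are CXCL8 (ENSG00000169429, 73740506 to 73743716, plus strand), CXCL1 (ENSG00000163739, 73869393 to 73871242, plus strand), CXCL5 (ENSG00000163735, 73995642 to 73998779, minus strand), CXCL3 (ENSG00000163734, 74036589 to 74038807, minus strand) and CXCL2 (ENSG00000081041, 74097035 to 74099293, minus strand). CCL20 (ENSG00000115009) lies on chromosome 2 from 227805739 to 227817564 on the plus strand. CX3CL1 (ENSG00000006210) lies on chromosome 16 from 57372458 to 57385048 on the plus strand, and CXCL16 (ENSG00000161921) on chromosome 17 from 4733526 to 4739922 on the minus strand. All 8 are protein-coding genes.

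The promoters of the cluster share a short motif, so they are shown before the values. Each run below covers 130 bases before and 20 after the RefSeq start of the gene, on the gene's own strand (GRCh38.p14), and capitals mark matches to GGNNTTTCC, a loose NF-kappa B pattern, read on either strand. Of the 8 genes, 6 had a promoter in the RefSeq table used here, and CX3CL1 and CXCL16 had none. CXCL6, a further member of the chromosome 4 cluster, is added for comparison. The windows lie at chr4:73740439-73740588 (CXCL8, plus strand), chr4:73869263-73869412 (CXCL1, plus strand), chr4:74099176-74099325 (CXCL2, minus strand), chr4:74038670-74038819 (CXCL3, minus strand), chr4:73998658-73998807 (CXCL5, minus strand), chr4:73836548-73836697 (CXCL6, plus strand) and chr2:227813712-227813861 (CCL20, plus strand).
CXCL8: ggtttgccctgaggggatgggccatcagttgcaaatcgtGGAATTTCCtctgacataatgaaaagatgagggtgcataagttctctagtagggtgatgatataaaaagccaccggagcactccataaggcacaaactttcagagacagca
CXCL1: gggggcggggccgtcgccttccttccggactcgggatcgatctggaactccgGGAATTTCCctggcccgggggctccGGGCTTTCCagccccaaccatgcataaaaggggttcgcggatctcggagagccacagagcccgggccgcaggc
CXCL2: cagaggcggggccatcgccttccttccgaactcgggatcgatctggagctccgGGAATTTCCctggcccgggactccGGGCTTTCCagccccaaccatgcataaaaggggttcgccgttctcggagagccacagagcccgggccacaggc
CXCL3: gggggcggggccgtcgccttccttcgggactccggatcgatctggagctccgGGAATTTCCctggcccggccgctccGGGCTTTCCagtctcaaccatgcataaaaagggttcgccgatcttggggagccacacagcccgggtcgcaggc
CXCL5: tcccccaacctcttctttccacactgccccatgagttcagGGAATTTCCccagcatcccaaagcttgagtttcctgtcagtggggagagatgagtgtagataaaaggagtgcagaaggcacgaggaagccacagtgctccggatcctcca
CXCL6: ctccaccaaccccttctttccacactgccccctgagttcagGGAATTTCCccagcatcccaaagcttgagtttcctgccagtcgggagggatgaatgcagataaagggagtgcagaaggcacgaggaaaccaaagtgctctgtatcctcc
CCL20: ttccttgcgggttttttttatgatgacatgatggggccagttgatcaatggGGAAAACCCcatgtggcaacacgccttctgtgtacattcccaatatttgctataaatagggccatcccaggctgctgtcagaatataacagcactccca

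The 9 letters GGAATTTCC, a classical NF-kappa B core and a special case of the looser pattern, stood in all 5 promoters of the neutrophil-attracting ligands and in that of CXCL6. Counted back from the base before the start as -1, the match began at -91 in CXCL8, -90 in CXCL5, -89 in CXCL6, -78 in CXCL1 and CXCL3 and -77 in CXCL2. On either strand of windows running from 250 bases before to 50 bases after the start, the same 9 letters were found in 162 of 35116 RefSeq promoters (0.461%). The printed runs of CXCL1, CXCL2 and CXCL3 are much alike over their length, as are those of CXCL5 and CXCL6. Their matches are therefore not independent of each other. CXCL1, CXCL2 and CXCL3 held another match to the looser pattern, GGGCTTTCC, at -53. CCL20 had no GGAATTTCC in its window, but matched the looser pattern on the opposite strand at -79, where its own strand reads GGAAAACCC. The looser pattern occurred in 2198 of the promoters (6.26%). CXCL8 also held the AP-1 pattern TGANTCA at -137, which was found in 7.71% of promoters, and a TATAAA at -31. CCL20 had a TATAAA at -29, and these 6 letters occurred in 11.5% of promoters. The C/EBP pattern TTGCNNAA, present in 10.5% of promoters, was found on the opposite strand of CXCL2 at -188 and in none of the other 5 chemokine promoters searched or CXCL6. These are matches of letters, and binding was not measured here.

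In the libraries, TKT had 348402, 294602 and 308875 counts on overexpression and 15626, 14256 and 17275 in control cells. Expressed as CPM, which divides counts by the TMM-scaled library total, this was 494 ± 23.0 in control cells and 9450 ± 88.0 with TKT (SD, n = 3 each), and TKT differed by 4.26 on the log2 scale (SE 0.04, adjusted p = 1.15e-25, edgeR quasi-likelihood test). The 6 libraries held between 30148788 and 37096156 counts, the common biological coefficient of variation was 0.113, and counts of libraries within a group differed by more than sampling noise, with a chi-square per degree of freedom from 6.90 to 9.41. Hepatocyte markers were abundant, with AFP at 8330 and ALB at 7910 CPM in control cells, while APOB had at most 6 counts in any library. Of markers of other cells, CD3E and CD68 had at most 2 counts, KRT7 at most 2 and KRT19 at most 6. Other genes on the same marker lists were expressed, with SOX9 at 166, LYZ at 151, EPCAM at 34.0, PECAM1 at 18.9, CD14 at 8.14 and PDGFRA at 7.91 CPM in control cells. Of the 13 hepatocyte markers tested, 4 rose and 2 fell, beside 5.69% of all tested genes called higher and 4.94% lower. On the log2 scale FGA and FGB rose by 0.50 (SE 0.03 each), FGG by 0.37 (SE 0.04) and APOH by 0.30 (SE 0.04). HNF4A and APOA2 had log2 fold changes of -0.15 and -0.13 (SE 0.04 each). The summed level of the 14 hepatocyte markers lay between 21400 and 21800 CPM in control and between 22200 and 22600 CPM in TKT libraries. The 8 leukocyte markers in the table summed to between 155 and 164 CPM in control and between 123 and 130 CPM in TKT libraries, a fall carried by LYZ (log2 fold change -0.35, SE 0.05, adjusted p = 1.71e-05, edgeR quasi-likelihood test). For stellate cell or fibroblast markers the sums were 12.7 to 13.7 and 13.1 to 13.5 CPM, for endothelial markers 17.3 to 20.7 and 15.4 to 19.9 CPM, and for cholangiocyte or other epithelial markers 216 to 220 and 212 to 231 CPM, with SPP1 (log2 fold change 0.57, SE 0.09, adjusted p = 0.000214, edgeR quasi-likelihood test) as the gene that rose. The part of these markers in the chemokine values was not tested. In bulk RNA, fewer cells of a type and less RNA per cell cannot be told apart.

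CXCL8, the most potent human neutrophil attractant of the family, showed the largest difference of the 8. Its counts were 4498, 4121 and 4207 in the TKT libraries and 1825, 1679 and 1969 in the control libraries. Scaled to CPM, these were 121, 134 and 128 against 58.1, 55.3 and 58.7. Every TKT library lay above every control library. The means were 128 ± 6.10 and 57.3 ± 1.82 CPM (SD, n = 3 each), a 2.23-fold difference, with a log2 fold change of 1.15 (SE 0.05).

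CXCL1, CXCL2 and CXCL3 encode closely related proteins that act on CXCR2. CXCL2 had 22.9, 25.8 and 22.2 CPM with TKT and 11.8, 10.4 and 10.9 CPM in control libraries, from 730 to 848 and from 315 to 370 counts. CXCL1 had 139, 145 and 138 CPM with TKT and 87.4, 83.2 and 88.0 CPM in control libraries. CXCL3 had 12.8, 16.4 and 14.3 CPM with TKT and 7.13, 8.85 and 8.46 CPM in control libraries. In each of these 3 genes the groups did not overlap. The log2 fold changes were 1.10 (SE 0.10) for CXCL2, 0.83 (SE 0.12) for CXCL3 and 0.70 (SE 0.05) for CXCL1. CXCL3 was the least abundant of the 8 and had the widest relative spread, with coefficients of variation of 11.1% in control and 12.5% in TKT libraries. The annotated transcripts of CXCL2 and CXCL3 share an identical stretch of 178 bases, which is longer than a 150-base read, so a read that lies wholly inside it matches both genes and is told apart only where its mate reaches other sequence. How such reads were counted is not given in the sources used here, and the split of counts between CXCL2 and CXCL3 is uncertain to that extent. CXCL1 shared at most 77 bases with CXCL2 and at most 55 with CXCL3, CXCL5 shared at most 45 with CXCL6, and the other pairs among these 6 genes between 10 and 18.

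CXCL5, also a CXCR2 ligand and one that epithelial cells produce, was abundant and differed less. It had 256, 277 and 271 CPM with TKT and 211, 225 and 214 CPM in control libraries, from 8560 to 9482 and from 6628 to 7191 counts. The groups did not overlap, and the log2 fold change was 0.31 (SE 0.04). CCL20 had 275, 292 and 273 CPM with TKT and 225, 223 and 232 CPM in control libraries, again without overlap. Its log2 fold change of 0.30 (SE 0.04) was close to that of CXCL5.

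The transmembrane ligands differed from each other. CX3CL1 had 78.2, 72.6 and 75.7 CPM with TKT and 46.8, 46.7 and 49.0 CPM in control libraries, which did not overlap, and its log2 fold change was 0.67 (SE 0.05). CXCL16 had 59.9, 62.1 and 55.3 CPM with TKT and 57.7, 56.6 and 55.5 CPM in control libraries. The third TKT library lay below all control libraries, so the groups overlapped, and the log2 fold change was 0.06 (SE 0.06, 95% confidence interval -0.05 to 0.18). CXCL16 shares 85 of its 2794 exon bases with MED11 on the opposite strand, and whether the counting used strand is not given in the sources used here.

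**Figure D1:**
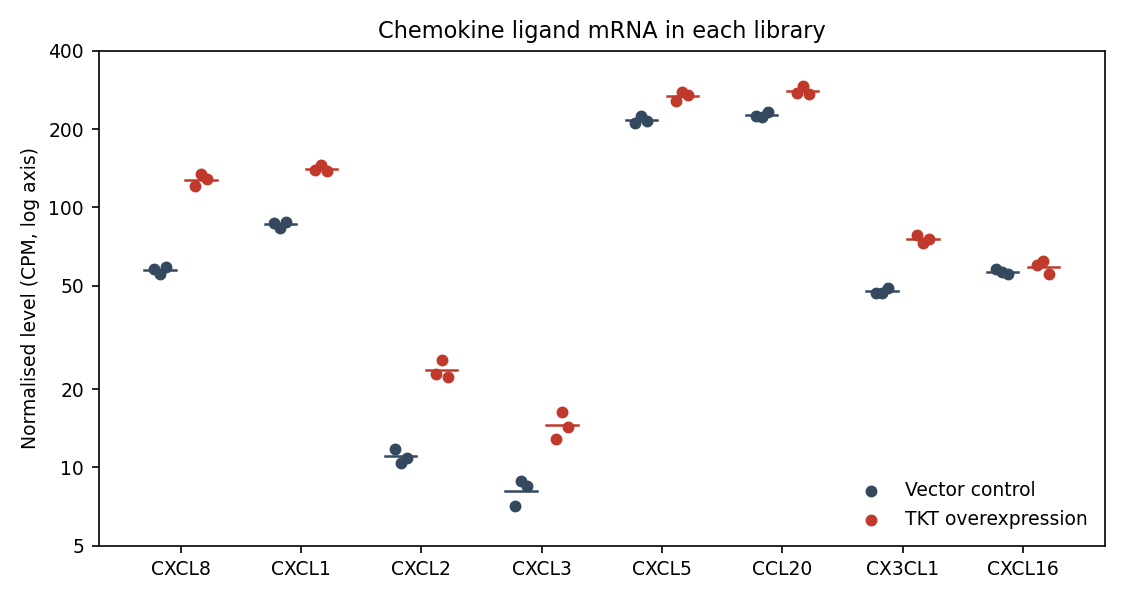
Level of each chemokine mRNA in each library as CPM on a log axis, with 3 vector control libraries and 3 TKT overexpression libraries per gene and a line at each group mean. The points of the groups stand apart for 7 genes and overlap for CXCL16. The gap is widest for CXCL8, from 57.3 to 128 CPM on average, with that of CXCL2 close to it.

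In the fit over all genes, 7 of the 8 chemokines were higher with TKT at an adjusted p-value under 0.05 (edgeR's quasi-likelihood test with Benjamini-Hochberg adjustment), beside 806 of 14162 tested genes (5.69%). At the added threshold of a log2 fold change over 1, 2 of the 8 were called, CXCL8 and CXCL2, beside 99 of all tested genes (0.699%). In 7 of the 8, every TKT library exceeded every control library in CPM, which was so in 1999 of all tested genes (14.1%). None was lower. The median log2 fold change of the 8 was 0.69, beside 0.001 over all tested genes. Because the genes were chosen with this contrast known, nothing is read from these counts. Under the 14 alternative analyses the log2 fold change of CXCL8 stayed between 1.12 and 1.19, that of CXCL2 between 1.01 and 1.15 and that of CXCL16 between 0.03 and 0.11.

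Compared per transcript length, as FPKM (counts scaled to transcript length and library size), the chemokines covered a wide range of abundance. In control cells the order was CCL20 (142 ± 2.15), CXCL5 (88.5 ± 3.81), CXCL1 (62.9 ± 1.40), CXCL8 (22 ± 0.516), CXCL16 (20.1 ± 0.442), CX3CL1 (7.93 ± 0.184), CXCL2 (7.83 ± 0.461) and CXCL3 (3.65 ± 0.425 FPKM, SD, n = 3 each). CCL20 ranked 258th and CXCL5 432nd of the 14162 tested genes by control FPKM, whereas CXCL3 ranked 6937th. The libraries of CX3CL1, from 7.78 to 8.13 FPKM, lay within the range of those of CXCL2, from 7.45 to 8.34 FPKM, so this pair of neighbours was not separated in control cells, while no other neighbouring pair in the order overlapped. With TKT the order was the same except that CXCL2 (16.8 ± 1.16 FPKM) stood above CX3CL1 (12.6 ± 0.551 FPKM). CXCL1 (101, 105 and 102 FPKM) and CXCL5 (105, 112 and 113 FPKM), apart in control cells, lay close to each other with TKT, the highest library of CXCL1 and the lowest of CXCL5 both rounding to 105 FPKM. The 8 together summed to 351, 356 and 356 FPKM in control libraries and to 481, 508 and 494 FPKM in TKT libraries.

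The make-up of this sum differed between the groups. CCL20 took 39.9% ± 0.432 of it in control cells and 35.5% ± 0.341 with TKT (SD, n = 3 each). The share of CXCL8 was 6.21% ± 0.167 and 9.95% ± 0.216, and that of CXCL1 was 17.7% ± 0.464 and 20.8% ± 0.207. CXCL5 went from 25% ± 0.966 to 22.2% ± 0.544 and CXCL16 from 5.68% ± 0.160 to 4.27% ± 0.194, although neither had a lower mean CPM with TKT. CX3CL1, CXCL2 and CXCL3 held between 1.03% and 3.41% on average in either group.

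Ratios of FPKM within a library cancel its depth and scaling. The ratio of CXCL8 to CXCL1 was 0.350, 0.350 and 0.351 in the control libraries and 0.461, 0.485 and 0.488 in the TKT libraries. The ratio of CXCL8 to CXCL5 was 0.249 ± 0.0159 in control cells and 0.448 ± 0.00484 with TKT (SD, n = 3 each). The ratio of CXCL1 to CXCL2 was 8.05 ± 0.376 in control cells and 6.12 ± 0.315 with TKT. These 3 ratios did not overlap between the groups. They are a description, since the genes were chosen with this contrast known, and gene pairs not named in this paragraph were not examined. Over all tested genes, CPM did not overlap between the groups in 28%, which is a share of single genes and not of ratios. The ratio of CXCL1 to CXCL2 also rests on the CXCL2 counts, whose split from CXCL3 is uncertain. The ratio of CX3CL1 to CXCL16 was 0.394 ± 0.0179 and 0.601 ± 0.0474, also without overlap. The ratio of CCL20 to CXCL5 was 1.6 ± 0.0746 and 1.6 ± 0.0540 and that of CXCL2 to CXCL3 2.17 ± 0.399 and 2.60 ± 0.205, and both overlapped.

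**Figure D2:**
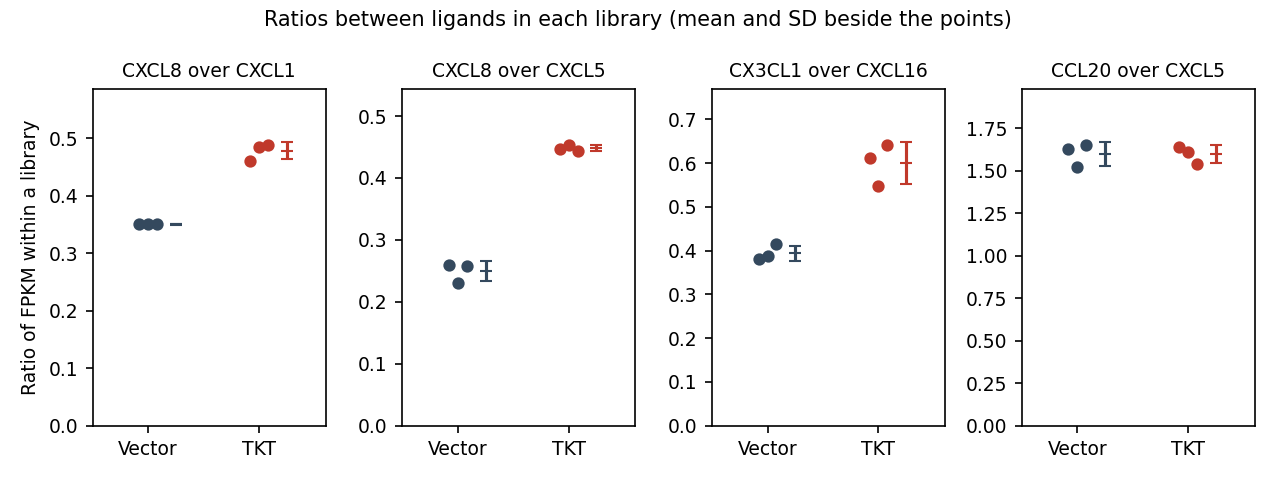
Ratio of the FPKM of 2 chemokines within each library, with 3 vector control and 3 TKT overexpression libraries per panel and the mean and SD beside the points, on linear axes that start at 0. CXCL8 over CXCL1, CXCL8 over CXCL5 and CX3CL1 over CXCL16 stand apart between the groups, and CCL20 over CXCL5 lies between 1.52 and 1.65 in all 6 libraries.

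Of 40 other chemokine ligands listed, 13 were in the count table and 4 passed the filter. None of the 4 was called by edgeR or by DESeq2, and 1 had an unadjusted edgeR p under 0.05. This was CXCL6, which also binds CXCR1 and CXCR2, lies between CXCL8 and CXCL1 on chromosome 4 and has the promoter shown above. It had 8.20, 8.10 and 8.67 CPM with TKT and 6.84, 5.43 and 6.59 CPM in control libraries. The groups did not overlap, and the log2 fold change was 0.40 (SE 0.14, adjusted p = 0.0638, edgeR quasi-likelihood test), past the threshold in 2 of 14 alternatives. CXCL10, an interferon-induced ligand of CXCR3, had 5.95 ± 1.87 CPM in control cells and 7.77 ± 0.643 with TKT (log2 fold change 0.38, SE 0.19, adjusted p = 0.241). CXCL9 and XCL1 had log2 fold changes of 0.67 (SE 0.65) and 0.31 (SE 0.25), and CXCL9 had at most 18 counts in a library. CCL2, the main monocyte attractant, had at most 2 counts. The median log2 fold change of the 4 tested genes was 0.39.

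**Figure D3:**
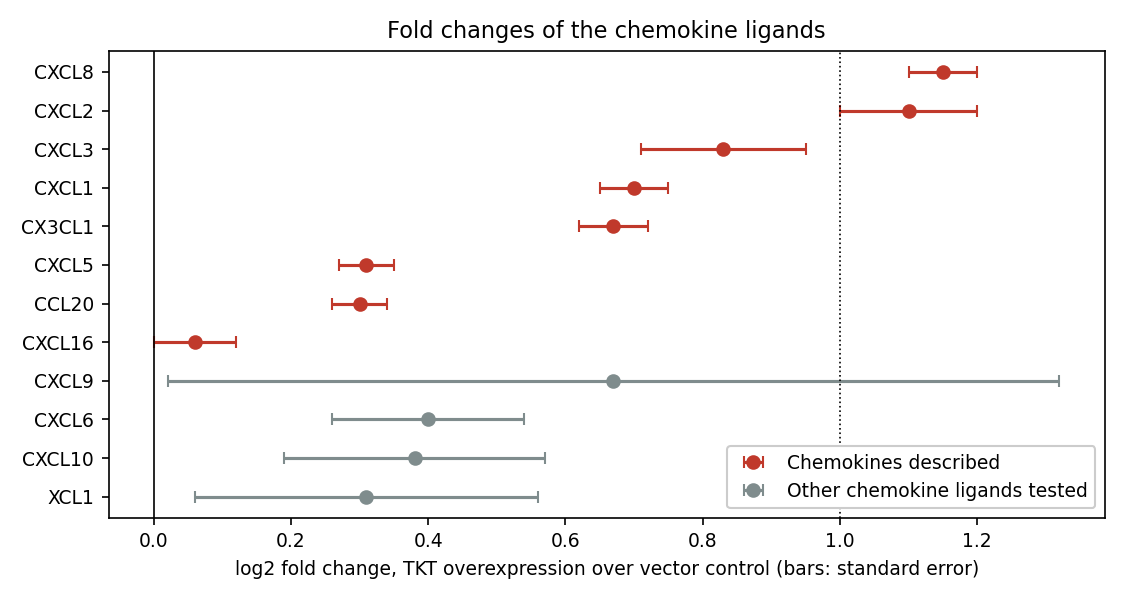
log2 fold change, TKT overexpression over vector control, of the 8 chemokines described and of 4 other chemokine ligands that were tested, with bars of 1 standard error and a dotted line at a log2 fold change of 1. CXCL8 at 1.15 and CXCL2 at 1.10 lie beyond the line, CXCL16 at 0.06 lies beside 0, and CXCL9 has the widest bar.

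The receptors of these ligands that could be examined had few or no counts in the same cells. CCR6, the CCL20 receptor, had 0, 3 and 0 counts with TKT and 5, 5 and 8 in control libraries, and CX3CR1 had 8, 6 and 5 and 4 counts in each control library. CXCR6 had 5, 18 and 3 counts with TKT and 4, 2 and 0 in control libraries, and none of the 3 passed the filter. CXCR1 and CXCR2 had no entry under those symbols in the count table. Of 25 chemokine receptors and sheddases listed, 18 were in the table and 10 were tested, of which 3 rose and none fell. For comparison, 5.69% of all tested genes were called higher and 4.94% lower. CCR3, a receptor of eosinophil-attracting chemokines, rose from 11.5 ± 0.799 to 16.9 ± 1.92 CPM (log2 fold change 0.56, SE 0.11, adjusted p = 0.00138, edgeR quasi-likelihood test). CCR1 rose from 10.7 ± 0.0927 to 13.6 ± 0.355 CPM (log2 fold change 0.35, SE 0.10, adjusted p = 0.0322), which held in 8 of 14 alternatives and was lost without vector control replicate 1, 2 or 3 or without TKT replicate 1 or 3. CCR2 had 20, 24 and 30 counts with TKT and 0, 9 and 3 in control libraries (log2 fold change 2.51, SE 0.69, adjusted p = 0.0228), past the threshold in 7 of the 12 alternatives that gave it a value, with a log2 fold change between 0.21 and 3.91. It was lost without TKT replicate 2 or 3 or without vector control replicate 1 or 3. The median log2 fold change of the 10 was 0.40.

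The sheddases of CX3CL1 and CXCL16 were expressed well above those receptors. ADAM10 had 210 ± 10.9 CPM in control cells and 194 ± 2.91 with TKT (SD, n = 3 each), and every TKT library lay below every control library, with a log2 fold change of -0.11 (SE 0.04, adjusted p = 0.0885, edgeR quasi-likelihood test). ADAM17 had 41.8 ± 3.81 and 42.1 ± 1.46 CPM (log2 fold change 0.01, SE 0.06, adjusted p = 0.943).

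The chromosome 4 neighbourhood was examined for genes outside the described set. Of 21 listed neighbours, from COX18 on one side to CXCL13 on the other, 18 were in the table and 14 were tested. Among the 14 tested, 2 rose and none fell, beside 5.69% of all tested genes called higher and 4.94% lower. Their median log2 fold change was 0.41. AREG, which encodes the EGF receptor ligand amphiregulin, rose from 3.91, 4.90 and 4.11 CPM in control libraries to 10.8, 8.56 and 9.46 with TKT (log2 fold change 1.16, SE 0.15, adjusted p = 1.37e-05, edgeR quasi-likelihood test). RCHY1, a ubiquitin ligase gene, rose from 15.8 ± 0.253 to 21.1 ± 2.90 CPM (log2 fold change 0.42, SE 0.10, adjusted p = 0.00852), a call lost without TKT replicate 3 and in both limma fits on FPKM, and past the threshold in 11 of 14 alternatives. EREG and BTC, which encode further EGF receptor ligands, had log2 fold changes of 1.83 (SE 0.67, adjusted p = 0.0882) and 0.58 (SE 0.24, adjusted p = 0.127), and EREG had at most 20 counts in a library. RASSF6 lies on the other side of the cluster, between AFM and CXCL8. It had a log2 fold change of 1.29 (SE 0.47, adjusted p = 0.0903, edgeR quasi-likelihood test) at 6 to 40 counts.

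On the same side of CXCL8 as RASSF6, the liver genes ALB and AFP had log2 fold changes of 0.03 (SE 0.04, adjusted p = 0.699, edgeR quasi-likelihood test) and 0.05 (SE 0.04, adjusted p = 0.415). AFM, their neighbour, had 0.52 (SE 0.55) at 8 to 21 counts. MTHFD2L, directly beyond CXCL2, had -0.13 (SE 0.11, adjusted p = 0.524), ANKRD17 had 0.03 (adjusted p = 0.793) and COX18 had -0.04 (adjusted p = 0.782) on the log2 scale. CXCL6, CXCL9 and CXCL10 are given above. EPGN, PARM1, PF4V1 and CXCL11 did not pass the filter, and PF4, PPBP and CXCL13 had no entry under those symbols in the count table. Around the cluster, AREG and RCHY1 were called and the listed genes next to it on either side, RASSF6 and MTHFD2L, were not. RASSF6 was still higher by 1.29 (SE 0.47) on the log2 scale at 6 to 40 counts, too imprecise to count as unchanged.

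**Figure D4:**
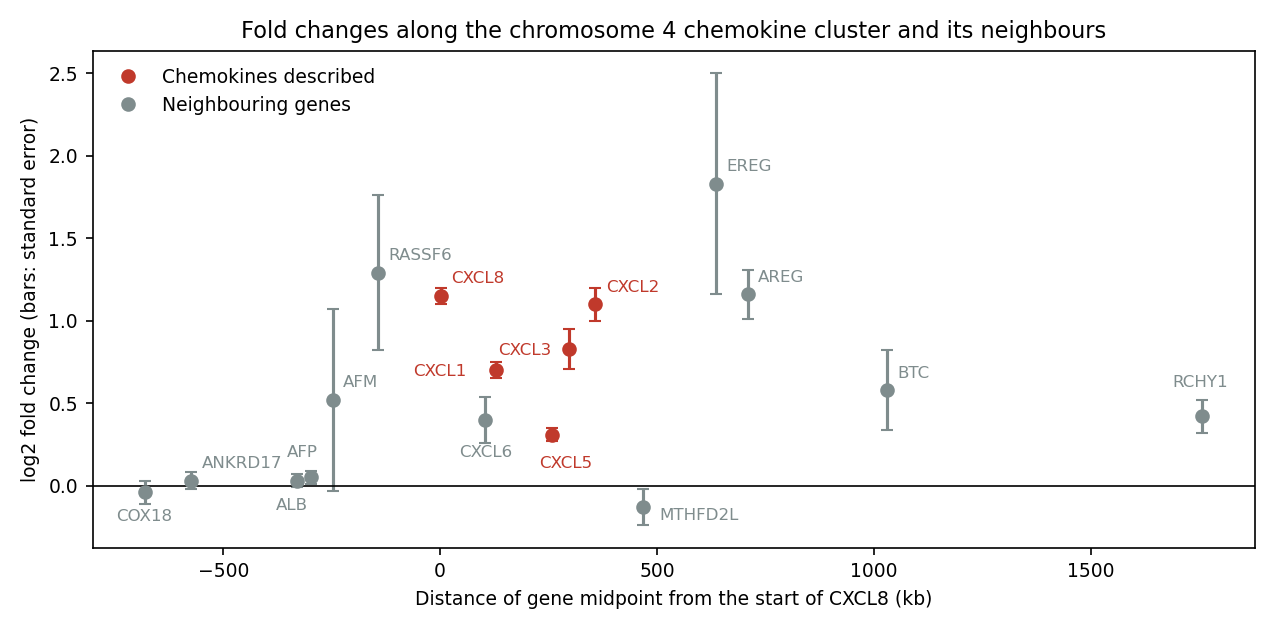
log2 fold change, TKT overexpression over vector control, of the 5 chemokines of the chromosome 4 cluster and of the tested neighbours from COX18 to RCHY1, against the distance of each gene's midpoint from the start of CXCL8 in kb, with bars of 1 standard error. ALB, AFP, ANKRD17 and COX18 lie at 0.05 or less, the chemokines between 0.31 and 1.15, and AREG at 1.16. EREG, RASSF6 and AFM have the widest bars.

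The NF-kappa B pathway, whose motif the cluster's promoters hold, was described by 36 listed subunits and regulators, of which 34 were tested. Of these, 10 rose and 1 fell, beside 5.69% of all tested genes called higher and 4.94% lower. The median log2 fold change was 0.12, with a range from -0.20 to 0.66, and none passed a log2 fold change of 1. TNFAIP3, which encodes the feedback inhibitor A20, rose from 17.8 ± 0.701 to 28.2 ± 0.947 CPM (log2 fold change 0.66, SE 0.08, adjusted p = 6.91e-06, edgeR quasi-likelihood test). The subunit genes RELB and NFKB2 rose by 0.48 (SE 0.08, adjusted p = 0.000311) and 0.28 (SE 0.05, adjusted p = 0.000724) on the log2 scale. IRAK1, a kinase of the interleukin-1 and Toll-like receptor pathways, fell from 303 ± 9.04 to 263 ± 11.4 CPM (log2 fold change -0.20, SE 0.04, adjusted p = 0.00169). NFKB1, which encodes the p50 precursor, had a log2 fold change of 0.09 (SE 0.05, adjusted p = 0.351) and is given for comparison. The count of calls fell from 11 to 6 without TKT replicate 1 or vector control replicate 3 and to 7 without TKT replicate 2. The 4 genes named as called were past the threshold in all 14 alternatives.

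Cytokines that commonly induce these chemokines had few counts. This describes the deposited counts alone, in which the hepatocyte marker APOB also had at most 6 counts in any library. IL1A had at most 2 counts, IL1B at most 12, and IL6 had 25, 15 and 6 counts with TKT and 2, 4 and 14 in control libraries. TNF had no entry under that symbol in the count table, so no level is given. Of 42 other inflammatory genes listed, 35 were in the table and 24 were tested. They were mostly cytokines and their receptors but also the adhesion molecules ICAM1, VCAM1 and SELE and the enzyme gene PTGS2. Among the 24 tested, 4 rose and none fell, beside 5.69% of all tested genes called higher and 4.94% lower. Their median log2 fold change was 0.11. CSF1, the macrophage growth factor, rose from 118 ± 2.82 to 150 ± 3.85 CPM (log2 fold change 0.35, SE 0.04, adjusted p = 1.24e-05, edgeR quasi-likelihood test). IL32 rose by 0.40 (SE 0.06, adjusted p = 3.83e-05), IL18 by 0.36 (SE 0.08, adjusted p = 0.00558) and ICAM1, a leukocyte adhesion molecule, by 0.18 (SE 0.04, adjusted p = 0.00264) on the log2 scale.

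Of 14 tested genes of the interferon response, edgeR and DESeq2 called none, and 4 had an unadjusted edgeR p under 0.05. Their median log2 fold change was -0.01. Some chemokine mRNAs hold AU-rich elements that bind decay and stabilising proteins. Of 14 mRNA binding and decay factors tested, 1 rose and 1 fell. Not all on that list bind AU-rich elements, and MAPKAPK2 is a kinase gene. This stands beside 5.69% of all tested genes called higher and 4.94% lower. ZFP36L1, a decay factor, rose by 0.19 (SE 0.05, adjusted p = 0.0197, edgeR quasi-likelihood test) and HNRNPD, which encodes AUF1, had a log2 fold change of -0.13 (SE 0.04, adjusted p = 0.0227). ZFP36L1 was past the threshold in 9 of 14 alternatives and was lost without TKT replicate 1 or vector control replicate 3. HNRNPD was past it in 7 of 14 and was lost without TKT replicate 1, 2 or 3 or vector control replicate 1.

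Across the 6 libraries, the pattern of CXCL8 (log2 CPM) was shared most closely by CXCL1 among the 8, with a Pearson correlation of 0.999, followed by CXCL2 (0.994), CCL20 and CX3CL1 (0.986 each), CXCL5 (0.963), CXCL3 (0.955) and CXCL16 (0.519). Among 11278 other tested genes averaging at least 1 on the log2 CPM scale, the 5 closest were FHL3 (0.9987), JUN (0.9986), HSPB8 (0.998), DUSP1 (0.9978) and TKT itself (0.9974). These values describe 6 points that fall into the 2 groups, and all genes of a library share its depth and scaling. JUN, which encodes a subunit of AP-1, rose from 100 ± 2.52 to 171 ± 3.52 CPM (log2 fold change 0.77, SE 0.04, adjusted p = 3.96e-11, edgeR quasi-likelihood test). DUSP1, a phosphatase that inactivates MAP kinases, rose from 36.7 ± 1.16 to 88.1 ± 2.90 CPM (log2 fold change 1.26, SE 0.05, adjusted p = 4.09e-13). HSPB8, a small heat shock protein gene, rose from 4.38 ± 0.271 to 12.5 ± 0.351 CPM (log2 fold change 1.51, SE 0.13, adjusted p = 3.09e-08). FHL3, a LIM domain protein gene, had 8.64 ± 0.0805 and 10.4 ± 0.151 CPM (log2 fold change 0.26, SE 0.11, adjusted p = 0.163).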

How the data were processed

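RNA-seq libraries from 3 TKT-overexpressing and 3 vector control samples of Huh7 cells were analysed. Total RNA was extracted with TRIzol and sequenced as 150-base paired reads. According to the submitters' processing notes and the paper's Methods, the authors trimmed reads with fastp 0.22.0, aligned them with HISAT2 2.1.0 (build hg38) and counted them with featureCounts. The annotation, the strand and multi-mapping options, and whether a pair was counted once are not given in the sources used here. The deposited counts are whole numbers per gene symbol without normalization, and the FPKM values deposited beside them are the authors' length-scaled values. Of the 25420 counts from 1 to 10, 63.8% were even (7006 values of 2, 3944 of 1 and 1952 of 3), so an alternative with counts halved and rounded up was added after seeing the data.

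Genes with low counts were removed (filterByExpr in edgeR 4.0.16, minimum count 10, R 4.3.3), libraries were scaled by TMM, and the 14162 remaining genes were tested with the robust quasi-likelihood test and Benjamini-Hochberg adjustment. Calls required an adjusted p-value under 0.05, and by a stricter rule also at an absolute log2 fold change over 1. Standard errors were derived from the fold change and its F statistic. Precision was set by the spread between 3 libraries per group with 30148788 to 37096156 counts each. Alternatives were DESeq2 1.42.0 (the tool the study names), RLE and upper-quartile scaling, no filter, the replicate number as a block, limma 3.58.1 on log2(FPKM + 1) and log2(FPKM + 0.1), and each library left out. Likeness to CXCL8 was Pearson's correlation over the 6 libraries (log2 CPM, prior count 2). The scripts were tested on simulated counts. Gene positions came from GENCODE 29 and promoter sequences from RefSeq.

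The described genes and the gene lists were chosen with earlier results of these data known. Named genes were the 8 chemokines, TKT, their receptors with ADAM10 and ADAM17, in each list the called genes past a log2 fold change of 1 or otherwise up to 4 with the smallest p, all chromosome 4 neighbours, and the 5 genes most like CXCL8. Other genes named were chosen after their values were seen. The pathway and GO columns of the tables were not used.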

Additional observations from a re-analysis of the deposited data

How the results depend on the processing

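Over the 14 alternatives, no log2 fold change of the 8 chemokines reversed, and 7 of the 8 kept an adjusted p under 0.05 in all 14 while CXCL16 did so in none. Of their 112 values 1 moved by more than the spread between replicates, that of CX3CL1, to 0.61 with limma on log2(FPKM + 1). The counts of 7 and 2 chemokines called held in every alternative. Over all genes, those called higher numbered from 431 (replicate block, 14162 tested) to 929 (no filter, 22077 tested). Past a log2 fold change of 1 they numbered from 12 (limma on log2(FPKM + 1)) to 148 (no filter). Because the 8 were chosen with this contrast known, nothing is read from their counts or p-values. With the replicate block, 697 genes were called in place of 1505 (67 in place of 103 past a log2 fold change of 1). The block gave 1 receptor in place of 3 and 5 NF-kappa B genes in place of 11. Of the mRNA binding and decay factors it gave 0 in place of 2. Over all tested genes, deviations from the group mean in samples with the same number correlated at -0.002, -0.025 and 0.016. With 3 libraries per group these values cannot settle whether such samples were paired, and the sources used here do not say. The limma fits on log2(FPKM + 1) and log2(FPKM + 0.1) called 827 and 826 genes, 13 and 66 of them past a log2 fold change of 1. Each called 1 other chemokine ligand (CXCL6), 6 NF-kappa B genes, 0 mRNA binding and decay factors and 1 interferon gene, which was lower. Past a log2 fold change of 1, DESeq2 called 53 genes and edgeR with no filter 160. Leaving out 1 library gave 791 (without TKT replicate 1) to 1586 genes, with 881 without vector control replicate 1. The same ranges were 1 to 2 for receptors and 6 to 9 for NF-kappa B. They were 0 to 2 for mRNA binding and decay factors and 1 to 3 for chromosome 4 neighbours. Of 154 counts, 122 stayed within 1.5 times the reported one. Genes at a few counts, such as CCR2 and EREG, are limited by depth.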

Other observations

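Outside the 8 chemokines, 148 genes had GGAATTTCC in their RefSeq promoter on either strand, and 61 of them were tested. Of these 61, 9 were called higher (14.8%, beside 5.69% of all tested genes) and 2 lower (3.28%, beside 4.94%), with a median log2 fold change of 0.07. Those called are named because their motif and call select them, after their values were seen. ICAM1 (0.18), NFKBIZ (0.29) and NFKBIA (0.18), each a known NF-kappa B target, were called higher (log2 fold changes), as were OPTN (0.50), MBNL2 (0.55), GFRA1 (0.36), DHRS7B (0.32), MICAL3 (0.19) and CLDN6 (0.61). DUSP6, an ERK phosphatase gene, and RAB34 had log2 fold changes of -0.20 and -0.17. NFKBIA was past the threshold in 8 of 14 alternatives, lost with the replicate block, without any 1 TKT library and without vector control replicate 2 or 3, and NFKBIZ in 12 of 14, lost in both limma fits on FPKM. No test of this group of genes was made, and the motif was found by its letters alone.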
